A study of Mus musculus with 20 samples.

Results

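The genes described here are 10 serotonin receptor genes of the mouse, Htr1a, Htr1b, Htr1d, Htr1f, Htr2a, Htr2c, Htr3a, Htr3b, Htr4 and Htr7. The list uses no measured value, but it was drawn up with earlier results of these data known. It leaves out Htr5a, Htr5b and Htr6 of the family. All 10 were found by symbol among the 37620 genes listed in the expression table. RNA sequencing was performed on intact DRG (dorsal root ganglia, where the cell bodies of sensory neurons lie) from 10 C57Bl6 embryos at E18.5. Each embryo gave 1 lumbar library (L4-5 ganglia) and 1 sacral library (L6-S1 ganglia, called sacral by the study), so that the 4 groups set by segment and sex held 5 libraries each. The embryos were untreated males M1, M3, M5, M7 and M8 and untreated females F3, F7, F8, F9 and F10. The study asked which transcripts distinguish ganglia that hold pelvic visceral sensory neurons from ganglia that do not, and whether the sexes differ. Whole ganglia contain neurons, glia and vessels, so fewer cells of a type and less RNA per cell cannot be told apart. The litter of each embryo was not stated. For the sexes, p-values measure the spread between embryos. For the segments, they measure the spread of the difference between the paired libraries of an embryo.

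Serotonin receptors fall into G protein-coupled classes and a single ion channel class. The Htr1 and Htr5 receptors couple to Gi/o and lower cyclic AMP, the Htr2 receptors couple to Gq and phospholipase C, and Htr4, Htr6 and Htr7 couple to Gs and raise cyclic AMP. The channel class is a pentameric cation channel for which Htr3a encodes the subunit that every working channel needs and Htr3b a partner subunit that cannot form a channel alone. In sensory ganglia, serotonin released by mast cells, platelets and enterochromaffin cells excites or sensitizes nociceptive endings, and channels with the Htr3a subunit carry fast signals in visceral afferents.

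Of the 10 genes, Htr3a was higher and Htr2c was lower in sacral than in lumbar ganglia, each in 10 of 10 embryos. The other 8 genes did not pass the test between segments. Between the sexes, Htr7 was lower in females than in males in sacral ganglia, and no other gene of the 10 passed the test in either segment. Differences are sacral minus lumbar, or female minus male, on the log2 RPKM scale (reads per kilobase of exon, scaled to library size). They were tested with limma with the embryo as a block and Benjamini-Hochberg adjustment over 16462 genes, and genes were called at an adjusted p of at most 0.05. With these settings 6.03% of all genes tested were called between segments, 2.53% higher and 3.5% lower in sacral ganglia. A count of 2 called among 10 genes is small, and it is given beside that share with no claim that the family stands apart. The median difference of the 10 genes was -0.313 and that of all genes tested was -0.037.

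The libraries held 19606265 to 39678967 reads recovered from the deposited values. Mitochondrial ribosomal RNA took 17.83% to 61.05% of these reads. The highest shares were 61.05% in lumbar M5, 49.49% in sacral M5, 48.84% in lumbar F7 and 44.73% in sacral F7. The receptor values were low in some of these libraries. Sacral F7 was the lowest of the 10 sacral libraries for 8 of the 10 receptor genes, lumbar F7 was the lowest lumbar library for 5 and lumbar M5 for 4. The 10 general sensory neuron markers (for example Snap25, Prph and Pou4f1) all passed the filter on low values, and their summed values ranged from 392 to 1630 RPKM over the 20 libraries.

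The stretches upstream of 4 receptor genes are shown because Htr3a, Htr2c and Htr7 carry the called differences and Htr3b is the neighbour of Htr3a that did not move with it. Each is 200 bases long, read 5′ to 3′ on the gene's strand from mouse build mm9, and ends at the base before the annotated 5′ end of the gene. Capitals mark matches on either strand to a TATA box (TATAAA), a GC box (GGGCGG), a cyclic AMP response element (TGACGTCA) or a HOX-PBX site (TGATNNAT).
Htr3a, chr9:48719205-48719404, minus strand: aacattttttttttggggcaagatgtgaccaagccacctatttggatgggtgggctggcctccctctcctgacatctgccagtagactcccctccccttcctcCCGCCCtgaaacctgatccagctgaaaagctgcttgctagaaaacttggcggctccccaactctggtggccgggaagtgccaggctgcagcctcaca
Htr3b, chr9:48773096-48773295, minus strand: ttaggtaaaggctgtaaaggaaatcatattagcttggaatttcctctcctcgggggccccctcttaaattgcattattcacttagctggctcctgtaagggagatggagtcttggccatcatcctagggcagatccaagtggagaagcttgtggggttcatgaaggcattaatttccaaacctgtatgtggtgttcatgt
Htr2c, chrX:143396856-143397055, plus strand: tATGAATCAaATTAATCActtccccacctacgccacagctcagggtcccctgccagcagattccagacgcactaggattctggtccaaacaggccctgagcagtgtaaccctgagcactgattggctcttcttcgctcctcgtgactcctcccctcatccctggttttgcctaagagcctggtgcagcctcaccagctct
Htr7, chr19:36131998-36132197, minus strand: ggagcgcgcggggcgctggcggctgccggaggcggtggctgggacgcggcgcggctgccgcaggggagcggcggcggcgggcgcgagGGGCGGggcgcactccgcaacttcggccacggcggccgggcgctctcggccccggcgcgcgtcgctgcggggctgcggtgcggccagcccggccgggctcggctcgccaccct

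Htr3a and Htr3b lie side by side on chromosome 9 on the same strand, with 23908 bases between the annotated genes. Their upstream stretches differ in composition. The Htr3a stretch was 56.5% G or C and held a GC box whose first base lies at position -97, counted back from the annotated 5′ end. The Htr3b stretch was 45.5% G or C and held none of the 4 motifs. The Htr2c stretch held 2 HOX-PBX matches, at positions -199 and -190, while the Htr7 stretch was 85.5% G or C with 39 CpG pairs, against a median of 55.5% and 7 CpG pairs over 22375 protein-coding genes. Of those 22375 stretches, 38.0% held the GC box, 5.21% the HOX-PBX letters, 10.1% the TATA box and 1.83% the cyclic AMP response element. Among the receptor stretches not shown, that of Htr1d also held a HOX-PBX match, at position -156. Those of Htr1a, Htr1d, Htr2a and Htr4 each held a GC box, and none of these genes was called between segments. A match is a string of letters and not a measured binding site.

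The 10 genes spanned a wide range of levels. Ordered by mean log2 RPKM over the 20 libraries (± SD, n = 20), Htr3b stood at 3.55 ± 0.65, Htr3a at 3.29 ± 0.81 and Htr1b at 3.26 ± 0.56. Htr1d at 1.72 ± 0.61 and Htr7 at 1.69 ± 0.68 followed, then Htr2a at -0.03 ± 0.59. Htr4 at -1.46 ± 0.67, Htr1a at -1.65 ± 0.95, Htr2c at -2.92 ± 0.92 and Htr1f at -3.00 ± 1.72 closed the order. The steps from Htr1b to Htr1d, from Htr7 to Htr2a and from Htr2a to Htr4 each held in 20 of 20 libraries. Htr1a exceeded Htr2c in 18 of 20 libraries. Htr1d and Htr7, Htr4 and Htr1a, and Htr2c and Htr1f were not separated, since the higher gene of each pair was higher in 11 of 20 libraries. These levels are per kilobase of exon, so steps in read numbers can differ in size or in sign. Over the 20 libraries Htr1b (1273 exon bases) held 7749 reads and Htr1d (3201 exon bases) 6767. Htr2c (9328 exon bases) held 893 reads and Htr1f (2509 exon bases) 329. On this scale the top of the order depended on the segment. Htr3b exceeded Htr3a in 10 of 10 lumbar libraries and in 2 of 10 sacral libraries, and Htr3a exceeded Htr1b in 0 of 10 lumbar and in 10 of 10 sacral libraries. Read sums gave another order. The 10 sacral libraries held 9224 reads of Htr3b (2411 exon bases) and 8791 of Htr3a (2082 exon bases). The 10 lumbar libraries held 5006 reads of Htr3a and 4547 of Htr1b. Which gene stood higher in a segment therefore depended on the exon lengths.

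**Figure D1:**
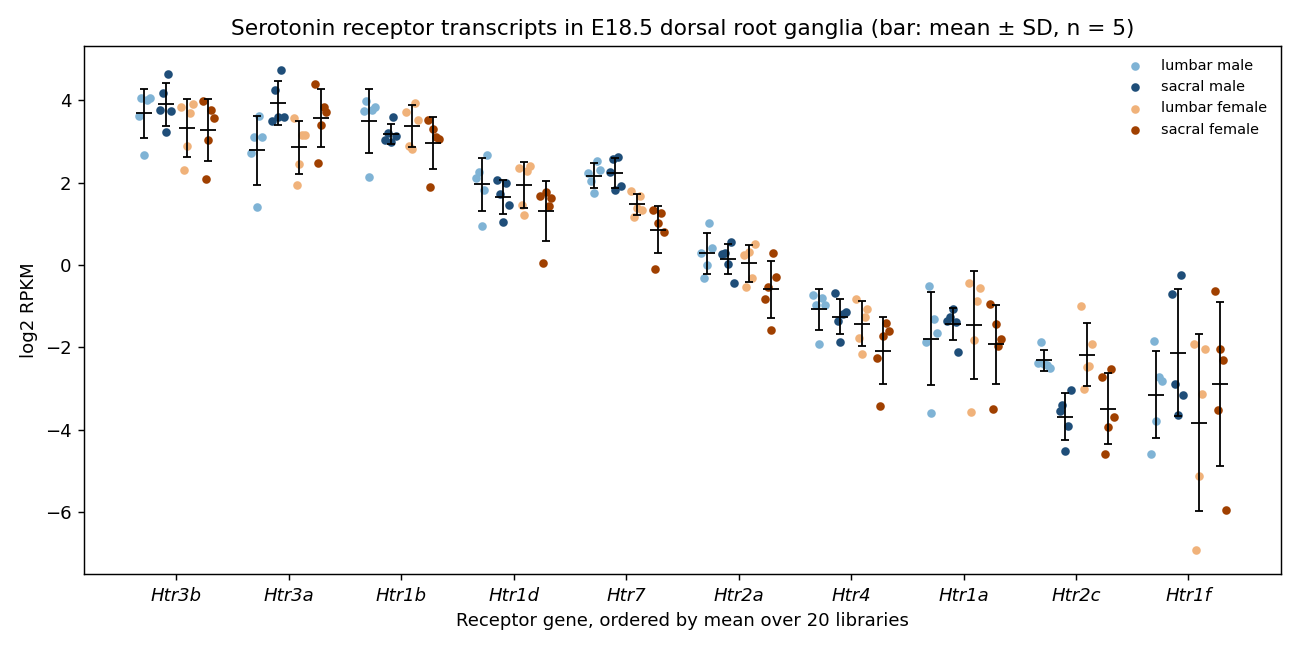
Log2 RPKM of the 10 serotonin receptor genes (x axis, ordered by mean) in the 20 libraries, 1 point per library, coloured by group, with the mean ± SD of each group (n = 5). Htr3b, Htr3a and Htr1b lie highest, Htr2c and Htr1f lowest, and the sacral points of Htr2c lie below most lumbar points.

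The ionotropic subunits were examined first. Htr3a (ENSMUSG00000032269, chr9:48707319-48719204, minus strand, mm9) was counted with 90 to 1709 reads per library. In males M1, M3, M5, M7 and M8 in that order, lumbar Htr3a measured 2.71, 3.12, 1.40, 3.61 and 3.10 log2 RPKM and sacral Htr3a 3.51, 4.26, 3.60, 4.74 and 3.60. In females F3, F7, F8, F9 and F10 in that order, lumbar Htr3a measured 3.58, 1.94, 2.45, 3.15 and 3.16 and sacral Htr3a 4.40, 2.48, 3.40, 3.84 and 3.72. Every embryo was higher in its sacral than in its lumbar library, although the lumbar and sacral ranges overlapped. F7 was low in both segments (1.94 and 2.48) and M7 was high in both (3.61 and 4.74). The mean was 2.82 ± 0.71 in lumbar and 3.76 ± 0.63 in sacral libraries (SD, n = 10), a difference of 0.94 (SE 0.21, 95% interval 0.50 to 1.37, 1.91-fold, limma adjusted p = 0.0115). Of all genes tested, 2.72% moved in the same direction in all 10 embryos. Without the block the difference was the same and the limma adjusted p was 0.108. The paired differences ran from 0.50 to 2.21, the largest in M5, and without M5 the difference was 0.80 (limma adjusted p = 0.0361).

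Htr3b (ENSMUSG00000008590, chr9:48743113-48773095, minus strand, mm9) did not follow its neighbour. For males M1, M3, M5, M7 and M8, lumbar Htr3b measured 3.63, 4.05, 2.68, 4.01 and 4.07 log2 RPKM and sacral Htr3b 3.76, 4.18, 3.24, 4.63 and 3.74. For females F3, F7, F8, F9 and F10, lumbar Htr3b measured 3.85, 2.30, 2.90, 3.69 and 3.92 and sacral Htr3b 3.98, 2.10, 3.03, 3.76 and 3.57. The groups overlapped throughout, and 7 of 10 embryos were higher in the sacral library. The difference was 0.09 (SE 0.19, 95% interval -0.31 to 0.49, limma adjusted p = 0.814), so a change of the size seen for Htr3a lies outside the interval.

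Because both subunits were read from the same libraries, their ratio removes what the 2 genes share within a library. This ratio was chosen after the values were seen. The log2 ratio of Htr3a to Htr3b was -0.69 ± 0.33 in lumbar and 0.16 ± 0.23 in sacral libraries (SD, n = 10). It was below 0 in 10 of 10 lumbar libraries and above 0 in 8 of 10 sacral libraries. The sign of the ratio depends on the exon lengths of the 2 genes, and its difference between segments does not. The lumbar range was -1.28 to -0.28 and the sacral range -0.26 to 0.42, without overlap. How often other pairs of genes have ratios without overlap was not computed. The ratio rose in 10 of 10 embryos, by 0.85 ± 0.32 on average (1.80-fold). An exact two-sided sign-flip permutation test over embryos gave p = 0.00195, the smallest that 10 embryos can give. Htr3a alone rose in 10 of 10 embryos and gave the same p in that test, so this p is not separate evidence. The rise of the ratio was 0.93 ± 0.44 in the 5 males and 0.76 ± 0.11 in the 5 females. It was 0.74 in F7 and 1.65 in M5, the embryos with the highest mitochondrial ribosomal RNA shares, and stayed between 0.76 and 0.88 on average when any single embryo was left out.

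**Figure D2:**
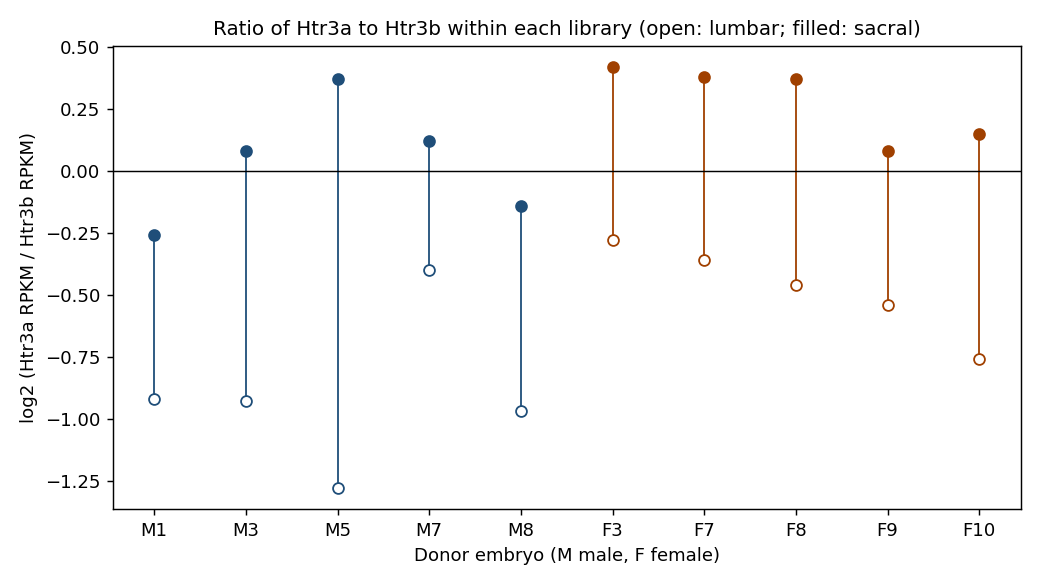
Log2 ratio of Htr3a to Htr3b RPKM (y axis) in the lumbar (open) and sacral (filled) library of each donor embryo (x axis), with males in blue and females in orange. The sacral point lies above the lumbar point in 10 of 10 embryos, by 0.52 to 1.65.

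The 5 genes whose values most resembled those of Htr3a over the 20 libraries, by Pearson correlation of log2 RPKM, were Kcnk3 (r = 0.948), Chrna3 (r = 0.945), Trpc4 (r = 0.923), 6330403A02Rik (r = 0.909) and Negr1 (r = 0.901). Kcnk3 encodes a background potassium channel, Chrna3 a nicotinic acetylcholine receptor subunit, Trpc4 a cation channel and Negr1 a cell adhesion protein. For Chrna3 the correlation was 0.944 within the 10 lumbar and 0.951 within the 10 sacral libraries, and its own segment difference was 1.30 (limma adjusted p = 0.000312). These are descriptions over libraries that share embryos, depth and mitochondrial RNA share.

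Cell type markers that moved with the segments are given beside these results. Of 8 markers of large myelinated sensory neurons, 4 were lower in sacral ganglia (Pvalb by 1.33, Etv1 and Nefh each by 0.86, Cntnap2 by 0.66 on the log2 scale) and 0 were called higher. The other 4 did not pass the test, among them Spp1 at 0.70 and Whrn at 0.43, and the list's median was -0.51. The summed level of the 8 markers was 98.0 to 188 RPKM in lumbar and 78.2 to 117 RPKM in sacral libraries. Of 8 markers of small nociceptive neurons, Trpv1 rose by 0.70 and the other 7 did not pass the test, with a median of -0.28 for the list and summed levels of 204 to 398 RPKM in lumbar and 121 to 367 RPKM in sacral libraries. Of 10 general sensory neuron markers, Snap25 fell by 0.60 and the other 9 did not pass, with a list median of -0.34. Their summed level was 765 to 1630 RPKM in lumbar and 392 to 1400 RPKM in sacral libraries. Among 8 autonomic neuron markers, 2 passed the filter and neither was called, with Slc6a2 at 1.82 and Th at 0.30 (limma adjusted p = 0.0925 and 0.417). The summed autonomic level was 2.33 to 7.24 RPKM in lumbar and 2.81 to 10.7 RPKM in sacral libraries, and Slc18a3 had at most 3 reads in every library. The part of these cell types in the Htr3a difference was not tested.

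The Gq-coupled receptors were Htr2a and Htr2c. Htr2c (ENSMUSG00000041380, chrX:143397056-143631820, plus strand, mm9) was a rare transcript with 8 to 155 reads per library. For males M1, M3, M5, M7 and M8, lumbar Htr2c measured -2.39, -1.86, -2.40, -2.42 and -2.50 log2 RPKM and sacral Htr2c -3.54, -3.40, -4.53, -3.91 and -3.04. For females F3, F7, F8, F9 and F10, lumbar Htr2c measured -0.99, -3.02, -2.49, -2.46 and -1.93 and sacral Htr2c -2.72, -4.58, -3.94, -2.53 and -3.69. Each embryo was lower in its sacral library. The 5 male sacral values all lay below the 5 male lumbar values, and 1.78% of all genes tested had lumbar and sacral male values that did not overlap. In females, sacral F3 and F9 reached into the lumbar range.

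The mean of Htr2c was -2.24 ± 0.54 in lumbar and -3.59 ± 0.69 in sacral libraries (SD, n = 10), a difference of -1.34 (SE 0.31, 95% interval -1.99 to -0.70, 2.54-fold lower, limma adjusted p = 0.0138). In reads, the 10 lumbar libraries held 643 and the 10 sacral libraries 250. The difference was -1.37 in males and -1.31 in females. The call was close to its threshold. The limma adjusted p was 0.0529 without M5, 0.0522 without F10, 0.102 without both M5 and F7, and 0.0823 without the block, with differences of -1.22 to -1.34 in these fits.

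Htr2c is known for its high level in choroid plexus and for expression in the spinal cord. Of 6 choroid plexus markers, 3 passed the filter and 0 were called, with a median of -0.08. Otx2 had at most 3 reads in every library, and the summed level was 4.24 to 15.1 RPKM in lumbar and 5.81 to 18.1 RPKM in sacral libraries. Of 8 spinal cord markers, 3 passed and 0 were called, with a median of 0.83, Mnx1 had at most 3 reads in every library, and the summed level was 0.107 to 2.16 RPKM in lumbar and 0.221 to 1.60 RPKM in sacral libraries. Of 8 Schwann cell and satellite glia markers, 4 were lower in sacral ganglia, among them Mbp (by 0.58 on the log2 scale), S100b (by 0.67) and Fabp7 (by 0.40), and their summed level was 235 to 342 RPKM in lumbar and 162 to 280 RPKM in sacral libraries. The 4 called markers of large myelinated neurons given above had the same sign as Htr2c, while Spp1 and Whrn of that list had the opposite sign without passing the test. The part of either cell type in the difference was not tested. The annotated span of Htr2c also holds 8 small RNA genes on the same strand.

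The genes most like Htr2c over the 20 libraries were Bcar3, an adaptor of integrin signalling (r = 0.897), Gm7271 (r = 0.856), the kinase gene Stk16 (r = 0.844), the myelin gene Mbp (r = 0.837) and the lincRNA Gm2115 (r = 0.828). For Mbp the correlation was 0.226 within lumbar and 0.737 within sacral libraries, whereas for Bcar3 it was 0.838 and 0.827. With so few reads of Htr2c these correlations are descriptions only.

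Htr2a, the other Gq-coupled receptor, was measured with 26 to 173 reads per library. Its mean was 0.17 ± 0.46 log2 RPKM in lumbar and -0.22 ± 0.66 in sacral libraries (SD, n = 10). The difference of -0.39 did not pass the test (SE 0.20, 95% interval -0.81 to 0.03, limma adjusted p = 0.252), and 7 of 10 embryos were lower in the sacral library. In the Gq pathway list, 0 of 12 genes tested were called. The smallest adjusted p of that list was 0.0586, for Itpr2, an inositol trisphosphate receptor of the endoplasmic reticulum, with a difference of 0.69.

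**Figure D3:**
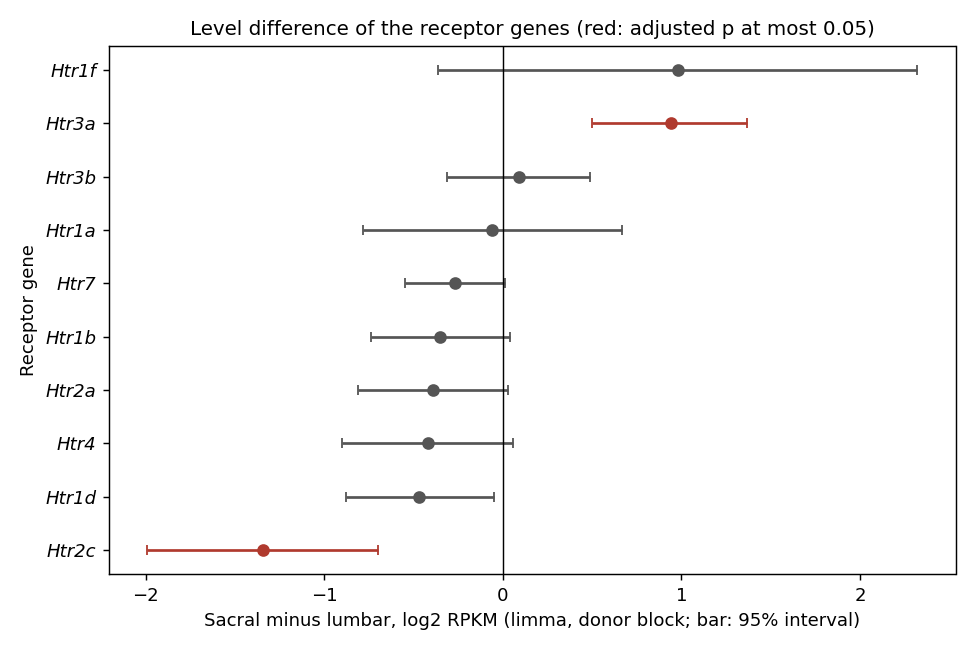
Sacral minus lumbar difference in log2 RPKM (x axis) of the 10 receptor genes (y axis), with limma 95% intervals and the embryo as a block (10 embryos). Htr3a at 0.94 and Htr2c at -1.34 are in red as called, and the intervals of the other genes, other than Htr1d, include 0.

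The Gi/o-coupled receptors included 3 of the family's best known targets, since Htr1b, Htr1d and Htr1f are bound by the triptan and ditan drugs used in migraine. Htr1b was the most abundant of them, at 3.44 ± 0.62 log2 RPKM in lumbar and 3.08 ± 0.47 in sacral libraries (SD, n = 10), with 8 of 10 embryos lower in the sacral library. Its difference was -0.35 (SE 0.19, 95% interval -0.74 to 0.04, limma adjusted p = 0.269). The annotated span of Htr1b overlaps that of the lincRNA D430036J16Rik on the opposite strand. Whether counting used strand is not given in the sources used here, so reads from the overlap cannot be told apart. Htr1d stood at 1.95 ± 0.57 in lumbar and 1.48 ± 0.59 in sacral libraries, with 7 of 10 embryos lower in the sacral library. Its difference was -0.47 (SE 0.20, 95% interval -0.88 to -0.05, limma adjusted p = 0.167). With weights for library quality both genes were called, at -0.49 for Htr1b and -0.52 for Htr1d (limma adjusted p = 0.0132 and 0.0216), and without F8 Htr1d was called at -0.61 (limma adjusted p = 0.0429).

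Htr1a, an inhibitory autoreceptor of serotonergic neurons elsewhere, showed no direction. Its values ranged from -3.60 to -0.43 log2 RPKM in lumbar and from -3.51 to -0.94 in sacral libraries, and 4 of 10 embryos were higher in the sacral library. The difference was -0.06 with a 95% interval of -0.78 to 0.67 (limma adjusted p = 0.936). Htr1f was the sparsest of the 10 genes, with 0 to 63 reads per library, no read in lumbar F7, and a mean of at least 1 CPM (counts scaled to library size) in 1 group, sacral males, through which it passed the filter. The difference of 0.98 had a 95% interval of -0.36 to 2.32 (limma adjusted p = 0.371), and 7 of 10 embryos were higher in the sacral library. A difference between segments was not detectable for Htr1f at this depth. In the Gi/o pathway list, 0 of 6 genes tested were called, and their differences ran from -0.35 to -0.08.

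**Figure D4:**
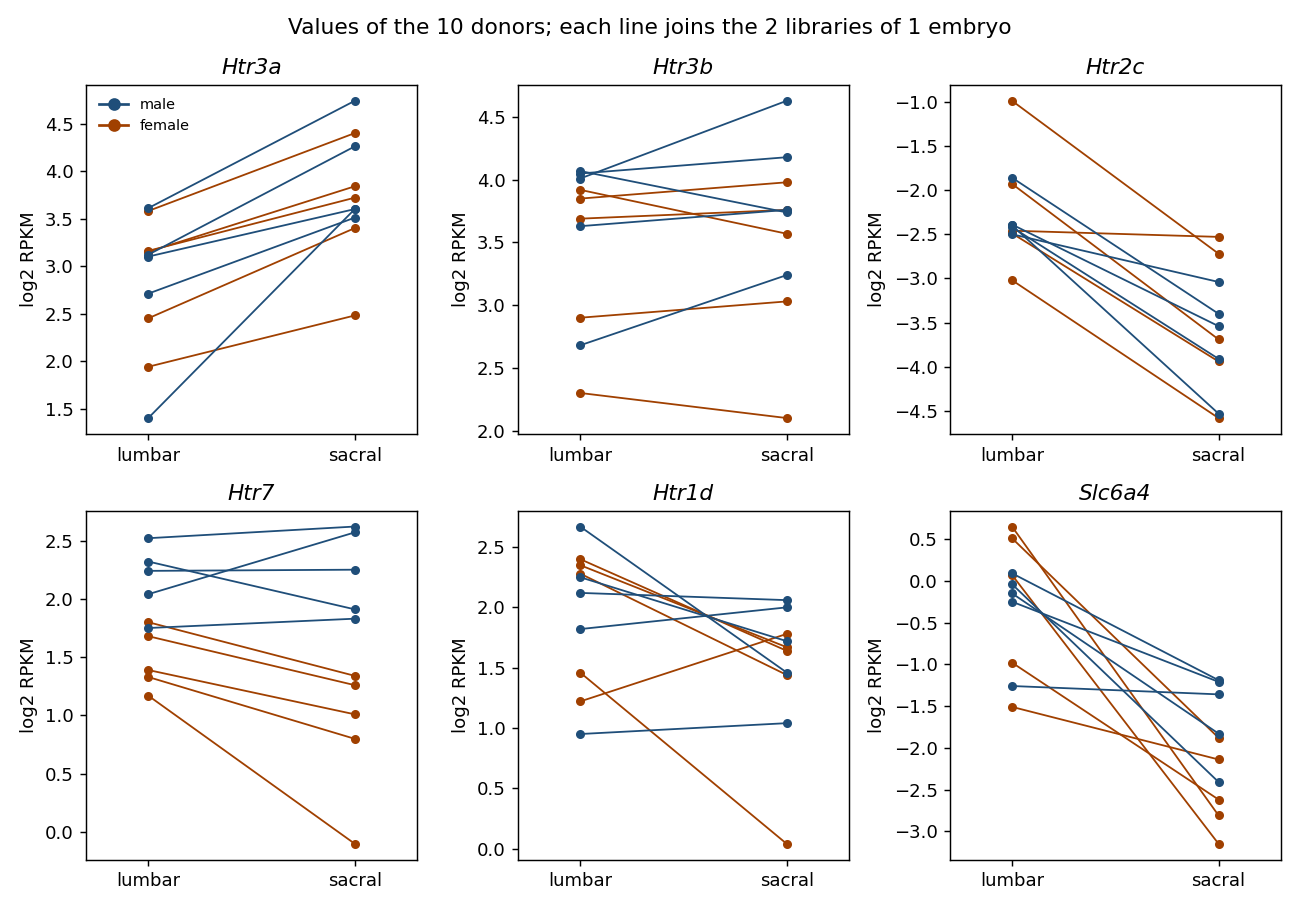
Log2 RPKM (y axes, scaled per panel) of Htr3a, Htr3b, Htr2c, Htr7, Htr1d and the serotonin transporter gene Slc6a4 in lumbar and sacral libraries, each line joining the libraries of 1 embryo, males in blue and females in orange. The 10 lines rise for Htr3a and fall for Htr2c and Slc6a4, and for Htr7 the 5 female lines fall while 4 of the 5 male lines rise.

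The Gs-coupled receptors were Htr4 and Htr7. Htr7 (ENSMUSG00000024798, chr19:36033224-36131997, minus strand, mm9) was the gene in which the sexes differed. For males M1, M3, M5, M7 and M8, lumbar Htr7 measured 2.24, 2.04, 1.75, 2.52 and 2.32 log2 RPKM and sacral Htr7 2.25, 2.57, 1.83, 2.62 and 1.91. For females F3, F7, F8, F9 and F10, lumbar Htr7 measured 1.80, 1.17, 1.39, 1.68 and 1.33 and sacral Htr7 1.34, -0.10, 1.01, 1.26 and 0.80. In sacral ganglia the 5 males all lay above the 5 females. In lumbar ganglia only F3 reached above the lowest male, M5. The numbers that end the library labels form separate runs for males and females, apart from that of lumbar M3, which has an extra digit. What these numbers record is not stated, so sex cannot be told apart from it.

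In sacral ganglia Htr7 averaged 2.24 ± 0.36 in males and 0.86 ± 0.58 in females (SD, n = 5 each), a female minus male difference of -1.38 (SE 0.23, 95% interval -1.86 to -0.89, 2.59-fold lower, limma adjusted p = 0.00374). Of all genes, 0.832% were called between the sexes in sacral ganglia, 0.601% as lower in females, and 3.61% had male and female sacral values that did not overlap. The difference also passed the test without F7, the lowest female, at -1.13 (limma adjusted p = 0.00756), and at -1.30 with the mitochondrial ribosomal RNA share as a covariate (limma adjusted p = 0.000537). That share was 24.08%, 21.55%, 49.49%, 28.4% and 34.51% in sacral M1, M3, M5, M7 and M8. It was 17.83%, 44.73%, 37.27%, 39.68% and 37.85% in sacral F3, F7, F8, F9 and F10. Apart from M5 and F3, the females all had higher shares than the males. In lumbar ganglia Htr7 averaged 2.17 ± 0.29 in males and 1.47 ± 0.26 in females, a difference of -0.70 that did not pass the test (SE 0.23, 95% interval -1.18 to -0.22, limma adjusted p = 0.35). In lumbar ganglia 0.273% of all genes were called between the sexes.

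Whether the sex difference of Htr7 itself differed between segments was tested as an interaction. Htr7 was lower in the sacral library in 5 of 5 females and in 1 of 5 males. The segment difference was -0.61 in females and 0.06 in males, and the difference between them was -0.67 (SE 0.27, 95% interval -1.24 to -0.11, limma adjusted p = 0.996). No gene was called for this interaction, a background of 0.0%, with 578 of 16462 genes at an unadjusted limma p under 0.05, and limma voom on the recovered reads called 0 of 16057. The lumbar and sacral sex differences of Htr7 were therefore not shown to differ. Over both sexes the segment difference of Htr7 was -0.27 (SE 0.13, 95% interval -0.55 to 0.01, limma adjusted p = 0.228).

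For the other 9 genes, the female minus male differences in sacral ganglia ran from -0.82 for Htr4 to 0.19 for Htr2c, 8 of the 9 were below 0, and the smallest adjusted p was 0.331, for Htr2a at -0.74. The median over the 10 genes was -0.558 in sacral and -0.18 in lumbar ganglia, against -0.017 and 0.028 for all genes tested. Sacral F7, the lowest sacral library for 8 of the 10 genes, belongs to the female group. Of the marker and pathway lists, the sensory neuron, glial, mast cell and autonomic lists held 0 genes called between the sexes in sacral ganglia. Summed sensory neuron markers were 700 to 1260 RPKM in sacral males and 392 to 1400 RPKM in sacral females.

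**Figure D5:**
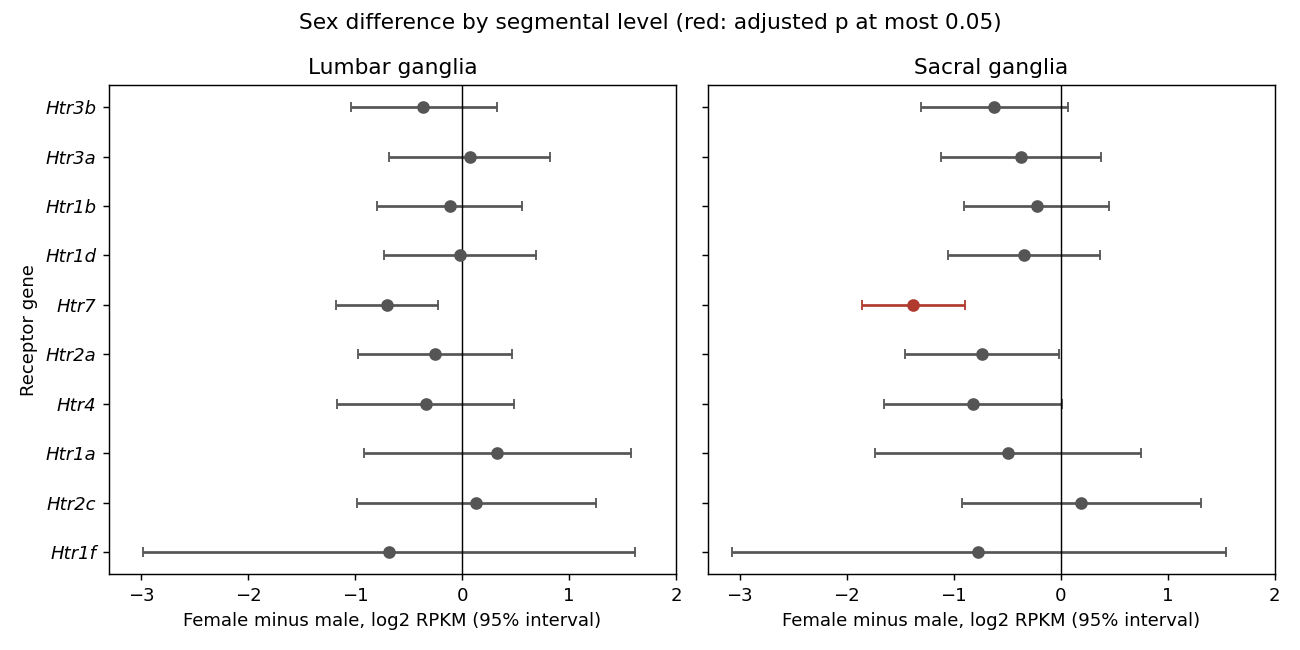
Female minus male difference in log2 RPKM (x axes) of the 10 receptor genes (y axis) in lumbar and sacral ganglia, with limma 95% intervals (5 females, 5 males). Htr7 in sacral ganglia, at -1.38, is in red as called, and in lumbar ganglia its value is -0.70.

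Within each sex alone, the segments were compared over 5 embryos. No gene of the 10 was called in males, where 0.48% of all genes were called, or in females, where 0.911% were. Htr3a differed by 1.16 in males and by 0.72 in females (limma adjusted p = 0.0831 and 0.238), with an interaction of -0.44 and a 95% interval of -1.31 to 0.43. Of the 10 genes, 2 in males and 5 in females had an unadjusted limma p under 0.05, against 11.6% and 16.7% of all genes tested. Fitted with limma voom on the recovered reads, 0 of the 10 were called in either sex.

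Htr4, a receptor known from enteric and visceral reflexes, was measured with 10 to 90 reads per library. It averaged -1.25 ± 0.52 log2 RPKM in lumbar and -1.67 ± 0.75 in sacral libraries (SD, n = 10). Its segment difference was -0.42 (SE 0.23, 95% interval -0.90 to 0.06, limma adjusted p = 0.283), and 7 of 10 embryos were lower in the sacral library. In the Gs pathway list, 0 of 12 genes tested were called. The smallest adjusted p was 0.0502, for Rapgef4, a cyclic AMP-activated exchange factor, with a difference of -0.38.

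The mouse has 3 further serotonin receptor genes. Htr5a was abundant among them, at 2.09 ± 0.71 log2 RPKM in lumbar and 1.96 ± 0.89 in sacral libraries (SD, n = 10), above the mean of Htr1d and Htr7 in both segments. Its difference was -0.13 (95% interval -0.65 to 0.39, limma adjusted p = 0.789). Htr5b averaged 0.26 ± 0.87 in lumbar and 0.02 ± 0.99 in sacral libraries, a difference of -0.24 (95% interval -0.87 to 0.39, limma adjusted p = 0.661). A pseudogene lies within the Htr5b span on the opposite strand. Htr6 did not pass the filter, had 0 reads in 11 of 20 libraries and reached at most 9 reads, so no comparison was made.

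Of 12 tested genes that make, carry or break down serotonin, 2 were called. Slc6a4, the plasma membrane serotonin transporter, was lower in the sacral library in 10 of 10 embryos. For males M1, M3, M5, M7 and M8, lumbar Slc6a4 measured 0.09, -0.25, -1.26, -0.15 and -0.04 log2 RPKM and sacral Slc6a4 -1.19, -1.21, -1.36, -1.83 and -2.41. For females F3, F7, F8, F9 and F10, lumbar Slc6a4 measured 0.51, -0.98, -1.51, 0.07 and 0.65 and sacral Slc6a4 -1.88, -2.62, -2.14, -3.15 and -2.81. The ranges overlapped through lumbar M5 and F8, whose values lay within the sacral range. The difference was -1.78 (SE 0.26, 95% interval -2.32 to -1.23, 3.42-fold lower, limma adjusted p = 0.000437), from 1252 reads in the 10 lumbar and 341 in the 10 sacral libraries. The processed transcript Gm12343 overlaps Slc6a4 on the opposite strand.

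Maob, one of the mitochondrial oxidases that break down monoamines, rose by 0.79 (SE 0.18, 1.72-fold, limma adjusted p = 0.0143), with 8 of 10 embryos higher in the sacral library. Without the block, and without M5 and F7, its adjusted p was 0.0834 and 0.0741. Maoa, the oxidase that prefers serotonin, was at -0.14 (limma adjusted p = 0.533). In all, 12 of the 14 genes for serotonin synthesis, transport and breakdown passed the filter, 1 rose and 1 fell, and the list's median was -0.15. The neuronal tryptophan hydroxylase gene Tph2, which starts serotonin synthesis, had 14 to 59 reads in lumbar and 3 to 36 in sacral libraries and a difference of -1.09 that did not pass (limma adjusted p = 0.11). Slc18a2, the vesicular monoamine transporter gene, was at 0.08 (limma adjusted p = 0.627). Of 7 receptor chaperones and binding partners, 0 were called, and the lowest adjusted p was 0.0789, for Tmem35 at -0.62.

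Mast cells, which store serotonin in rodents, were followed with 7 markers, of which 4 passed the filter. Tpsb2 rose by 2.45 and Cma1 by 1.21 in sacral ganglia (limma adjusted p = 0.00339 and 0.0167), while Cpa3 was at 0.98 and Hdc at 0.58 (limma adjusted p = 0.0653 and 0.301). Their summed level was 1.25 to 6.49 RPKM in lumbar and 3.99 to 12.5 RPKM in sacral libraries. Of 5 platelet markers, 2 passed and 0 were called. Of 6 endothelial markers 5 were tested, and Cdh5 and Tek rose, by 0.46 and 0.54. Pecam1 at -0.11, Kdr at -0.04 and Emcn at 0.01 did not pass, and the list's median was 0.01. Of the smooth muscle and pericyte markers, 0 of 5 tested were called. The part of these cells in the receptor values was not tested.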

How the data were processed

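Per the labels and the study's methods, total RNA of whole embryonic ganglia was amplified (NuGEN Ovation), made into Nextera XT libraries and sequenced. The authors aligned reads to mm9 with Subread, counted unique reads per Ensembl gene with featureCounts, and deposited log2 RPKM values after TMM normalization in edgeR 3.12.1 and voom in limma 3.26.9. The table lists 37620 genes, 8571 of them blank throughout. Over the genes with a value, the median log2 RPKM was 0.930302 in each of the 20 libraries. The study's methods do not name the step that set it. Read numbers were recovered with GENCODE M1 exon lengths: 97.66% of the values came out whole within 0.05 reads. A blank was set to 0.5 reads, and genes with a mean of at least 1 CPM in any group were kept (16462), as in the study. Groups were fitted with limma 3.58.1 (R 4.3.3), with the embryo as a block because both libraries of a number come from the same animal (consensus correlation 0.324), and adjusted by Benjamini-Hochberg. The script was tested on simulated data. Amplified reads carry no molecular identifiers, so counting error covers reads only. Member and list choices were made with earlier results of these data known. Named genes were the 10 receptors, the other 3 receptor genes, called or lowest-p genes of each list, and the 5 genes most correlated with each called receptor; other uncalled list genes were named after their values were seen. All 10 receptors passed the filter, so the exact test planned for receptors below it was not needed. Alternatives are given in the closing section.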

Additional observations from a re-analysis of the deposited data

Results flagged for a closer look

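In each group of 5 libraries, the lowest and the highest value of each receptor gene were compared with the other 4 by Dixon's ratio of gap to range, with a critical value of 0.71. Of 40 such groups 4 held a value past it, where chance gives about 1 in 20 groups. Lumbar M5 was the lowest of the lumbar males for Htr1b, at 2.13 log2 RPKM (91 reads, ratio 0.877), and for Htr4, at -1.93 (20 reads, ratio 0.789). Sacral F7 was the lowest of the sacral females for Htr1d, at 0.04 (76 reads, ratio 0.807). Lumbar M3 was the highest of the lumbar males for Htr2c, at -1.86 (77 reads, ratio 0.822). Lumbar M5 had a mitochondrial ribosomal RNA share of 61.05%, sacral F7 of 44.73% and lumbar M3 of 21.65%. The part of that share in these values was not tested. No receptor gene passed a test of a different segment effect in the 2 sexes.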

How the results depend on the processing

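Between segments 993 genes and 2 receptor genes were called. Without the replicate block, that is without pairing the libraries of an embryo, these counts were 194 and 0. They were 2857 and 4 with array weights, 312 and 1 without M5 and F7 (chosen after seeing the data), and 444 to 1630 and 1 to 3 when 1 embryo was left out. Counts of all genes moved past 1.5 times without F10 (444), F3 (595), F7 (544), M1 (635), M5 (541) or F8 (1630). No filter gave 507 genes. A filter at 1 RPKM removed Htr2c and left 1 receptor gene, and limma voom on recovered reads called 955 genes. Within males 1 receptor gene was called, Htr3a, with the mitochondrial share as covariate and with the embryo as a fixed effect. Within females 1 was called, Htr2c, with array weights. The Htr1a difference changed sign in some fits without 1 embryo (-0.33 to 0.08), and the Htr3b difference did with array weights (-0.05). The cause was not tested. Htr3a kept its call in 22 of 23 alternatives, Htr2c in 18 of 22, Slc6a4 in 22 of 22 and the sacral sex difference of Htr7 in 22 of 22. Differences on log2(RPKM + 1) are smaller for rare genes, -0.16 for Htr2c. Depth limits Htr1f, Htr2c and Htr6. With 5 embryos a sex, tests within 1 sex are less sensitive than those over 10.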
